A study of Zea mays with 6 samples.

Results

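The 289 maize genes described here are the last ones in the order of their identifiers among the genes expressed in the leaf. Transcript values were summed to genes, 18719 of 44303 annotated genes reached 0.5 FPKM in at least 3 of 6 libraries, and these were numbered by identifier. The genes at ranks 18431 to 18719 were taken. FPKM, fragments per kilobase of transcript per 1e6 fragments, is a level per transcript length, so levels can be compared between genes.

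The libraries came from leaves of field-grown maize taken 25 days after germination, 3 from the wild type (WT) and 3 from the edf1-D mutant, each in the inbred line W22. W22 is a laboratory line of maize, and the suffix D marks a dominant allele by maize convention. Whether each library stands for a plant of its own is not stated in the labels. The p-values weigh a genotype difference against the spread between libraries of a genotype. That spread can therefore be technical in part. Between 24187 and 25397 genes had a value above 0 in a library, and the number of reads is unknown.

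As background, gene models of a maize reference genome are commonly numbered along the chromosomes, and then along assembled sequence that was not assigned to a chromosome. Genes on such leftover sequence often have close copies elsewhere, and short reads of close copies are hard to assign to 1 gene. The files give no positions, so whether this numbering holds here was not checked. The column for gene names was empty, and 0 of the 289 identifiers matched the RefSeq gene table of the B73 assembly, so no role, name or sequence can be given. For the same reason the leaf tissue was not checked against marker genes. Members are given below by rank, and a few by identifier.

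The identifiers themselves divided the 289 genes. Each gene carries a second identifier, and along the table the 6-digit numbers of these second identifiers ran nearly in step with the first. They reached 42024 at rank 18550, moved to 42219 at rank 18551 and to 42114 at the next annotated gene of this series. Jumps of more than 100 between neighbouring second identifiers numbered 54 in the whole table, of which 5 lay before the first member and 49 after it. For this count, second identifiers numbered from 100000 upward were left out. The first of the 49 jumps split the members into 120 before it (ranks 18431 to 18550) and 169 after it (ranks 18551 to 18719). The split was placed after the data had been seen, but it used identifiers and no expression value.

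Both sets also differed in annotation. Before the jump 120 of 225 annotated genes (53.3%) passed the expression minimum, and after it 169 of 844 (20.0%), where 42.3% passed in the whole table. A single annotated transcript was held by 47 of the 120 genes (39.2%) and by 156 of the 169 (92.3%), against 42.8% of all tested genes. Second identifiers of the series from 100000 upward were held by 1 of the 120 and 34 of the 169 genes, and by 4.68% of all tested genes. The genes after the jump were therefore mostly single-transcript models in a stretch where few models were expressed.

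Levels of the members were ordinary. The median of their mean levels was 5.27 FPKM, against 5.22 FPKM for all tested genes. In the mean 70 members lay under 2 FPKM and 23 at 50 FPKM or more. The minimum of 0.5 FPKM was reached in all 6 libraries by 196 members, in 4 or 5 libraries by 66 and in exactly 3 by 27. Of these 27 genes, 21 lay after the jump. Another 50 annotated genes of the same identifier range reached the minimum in 2 libraries and are no members. At the lower edge, the first member was listed at 21.8, 24.1 and 16.3 FPKM in WT replicates 1, 2 and 3 and at 27.4, 34.5 and 23.4 FPKM in edf1-D. The gene just outside, at rank 18430, was listed between 0.49 and 1.71 FPKM.

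The members held 1.05%, 1.16% and 2.48% of all FPKM in WT replicates 1, 2 and 3, and 1.26%, 0.956% and 1.82% in edf1-D replicates 1, 2 and 3. The highest shares were thus found in replicate 3 of both genotypes, and the lowest in edf1-D replicate 2. The genotypes overlapped, with means of 1.56% ± 0.796 in WT and 1.34% ± 0.437 in edf1-D (SD, n = 3 each). The genes were chosen by their FPKM, through the expression minimum, and with these library differences known, so the shares are a description and carry no test. In whole leaves, fewer cells of a type and less RNA per cell cannot be told apart.

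The differences between libraries lay after the jump. The 169 genes there held 0.447%, 0.617% and 1.93% of FPKM in WT replicates 1, 2 and 3, and 0.561%, 0.175% and 1.13% in edf1-D replicates 1, 2 and 3. From the lowest to the highest library this share differed 11.1-fold, and the summed FPKM of the 169 genes differed 6.71-fold, from 1199 in edf1-D replicate 2 to 8051 in WT replicate 3. The summed FPKM of all genes ran the other way. It was 607906, 565167 and 416517 in WT replicates 1, 2 and 3 and 552924, 686251 and 472269 in edf1-D. Its range was 1.65-fold, and the order of the libraries by the share of all 289 members was the exact reverse of their order by this sum. By the share of the 169 genes alone, WT replicate 2 and edf1-D replicate 1 stood the other way round. The part of the library sum in the result was not tested.

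The 120 genes before the jump held between 0.540% and 0.781% in the 6 libraries, a 1.45-fold range. Their share was 0.564% ± 0.0353 in WT and 0.720% ± 0.0530 in edf1-D (SD, n = 3 each), and the libraries of the genotypes did not overlap. This came with 1 gene, Zm00001eb433540 at rank 18491, the most abundant member. It was listed at 1971, 1227 and 905 FPKM in WT and at 2041, 3413 and 1608.5 FPKM in edf1-D. It alone made up between 8.77% (WT replicate 3) and 52.0% (edf1-D replicate 2) of the members' FPKM. Without it the other 119 genes held 0.280% to 0.329% in WT and 0.284% to 0.342% in edf1-D, and the genotypes overlapped. Its own genotype difference of 0.78 ± 0.40 on the log2 scale (SE) did not pass (limma, Benjamini-Hochberg adjusted p = 0.33).

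**Figure D1:**
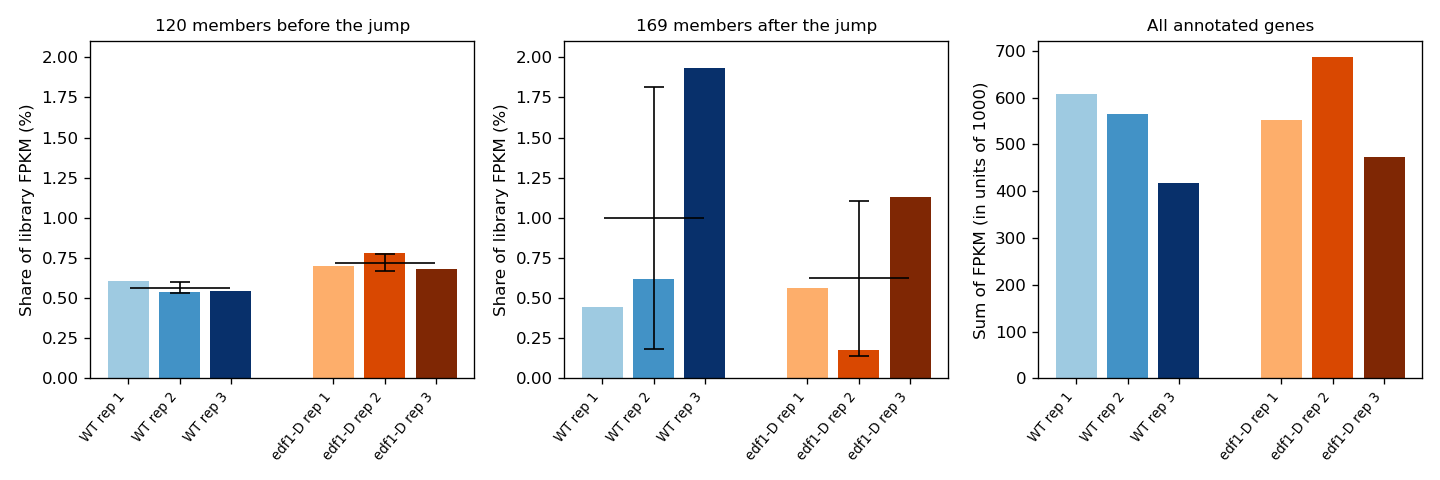
Share of each library's FPKM (percent, bars) held by the 120 members before and the 169 members after the jump of the second identifiers, with the genotype mean and SD (n = 3) in black, and the summed FPKM of all annotated genes in units of 1000. After the jump WT replicate 3 stands at 1.93% and edf1-D replicate 2 at 0.175%, while before it all libraries lie between 0.540% and 0.781%.

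The change at the jump was seen gene by gene. WT replicate 3 was the highest WT library in 108 of the 169 genes after the jump and in 8 of the 120 before it. Likewise edf1-D replicate 3 was the highest edf1-D library in 104 of the 169 and 10 of the 120 genes, and edf1-D replicate 2 the lowest in 114 of the 169 and 17 of the 120. The 169 genes include 18 with values identical to those of another member, given below, which are not separate measurements. Across all 6 libraries WT replicate 3 gave the highest value in 42.6% of the genes after the jump, against 4.67% of all tested genes. The lowest value was that of edf1-D replicate 2 in 42.6% of them, against 7.79% of all tested genes. Before the jump the members followed the whole table, in which WT replicate 2 was most often the highest library (53 of 120 members, 43.8% of tested genes) and edf1-D replicate 3 most often the lowest (51 of 120 members, 39.6% of tested genes).

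A library's deviation was measured as its log2(FPKM + 1) minus the mean of its genotype. Over the 169 genes after the jump the median deviation of replicate 3 was 0.41 for WT and 0.48 for edf1-D, and that of edf1-D replicate 2 was -0.48. The other libraries stood at -0.31 (WT replicate 1), -0.01 (WT replicate 2) and 0.12 (edf1-D replicate 1). Over the 120 genes before the jump the signs were turned, with -0.17 and -0.17 for the replicates 3 and 0.13 for edf1-D replicate 2, close to the -0.20, -0.17 and 0.14 of all tested genes. In bins of 17 genes along the order, the deviation of WT replicate 3 was between -0.31 and -0.03 in each of the 7 bins up to rank 18549, and between 0.02 and 0.94 in each of the 10 bins from rank 18550 on.

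**Figure D2:**
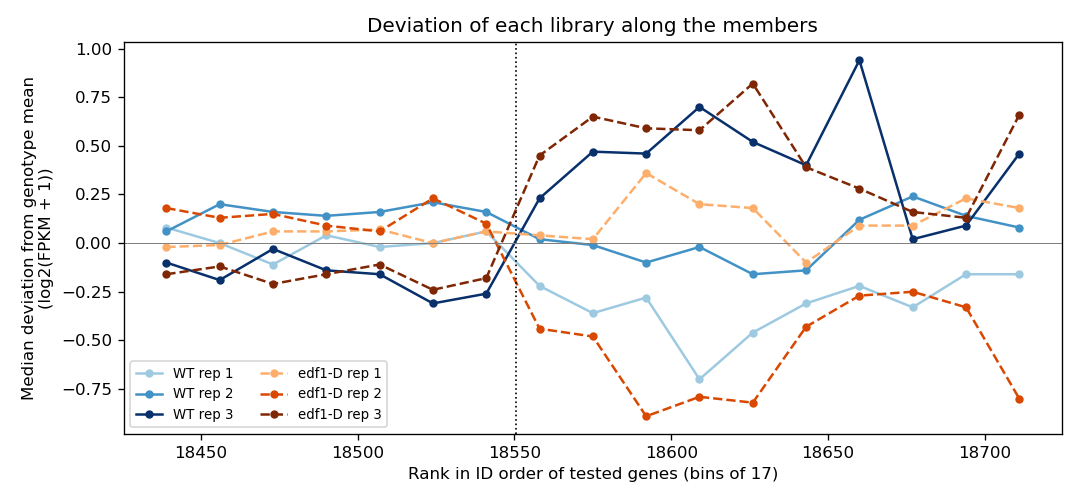
Median deviation of each library from its genotype's mean (log2(FPKM + 1), y axis) in bins of 17 genes along the rank in identifier order (x axis). The dotted line marks the jump of the second identifiers between ranks 18550 and 18551. WT replicate 3 and edf1-D replicate 3 lie below 0 before it and above 0 after it, and edf1-D replicate 2 the other way round.

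Genes that were high together in both replicates 3 and low in edf1-D replicate 2 were collected by a rule. WT replicate 3 had to be the highest WT library, edf1-D replicate 3 the highest and edf1-D replicate 2 the lowest edf1-D library, and each had to deviate by at least 0.5 on the log2 scale in that direction. This pattern was shown by 48 of the 289 members (16.6%) and by 0.395% of all tested genes. All 48 lay after the jump, between ranks 18557 and 18716. The members were chosen for this pattern, so no test is given. The opposite pattern was shown by 3 members, and by 1.42% of all tested genes. By the order of libraries alone, with no minimum deviation, 80 members showed the pattern, 79 of them after the jump, against 1.23% of all tested genes. When every library was scaled to an equal sum (TPM), 76 members passed the rule with its minimum of 0.5, against 0.796% of all tested genes.

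The 48 genes ranged from 1.61 to 719 FPKM in the mean, with a median of 16.4 FPKM, and 44 had a single transcript. WT replicate 3 stood at a median of 4.06 times the mean of the other WT libraries. Listed at 0 in edf1-D replicate 2 were 16 of the 48. In the other 32, edf1-D replicate 3 stood at a median of 9.14 times edf1-D replicate 2. The highest library was WT replicate 3 in 38 genes and edf1-D replicate 3 in 10, with a median ratio of edf1-D replicate 3 to WT replicate 3 of 0.768. By the rule, edf1-D replicate 1 lay between the other edf1-D libraries in each of the 48. The rule set no order between WT replicates 1 and 2, and replicate 1 was the lowest WT library in 40 genes. Median deviations of WT replicates 1 and 2 were -0.98 and -0.03 in the 48 genes, and 0.02 and 0.17 in all tested genes.

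**Figure D3:**
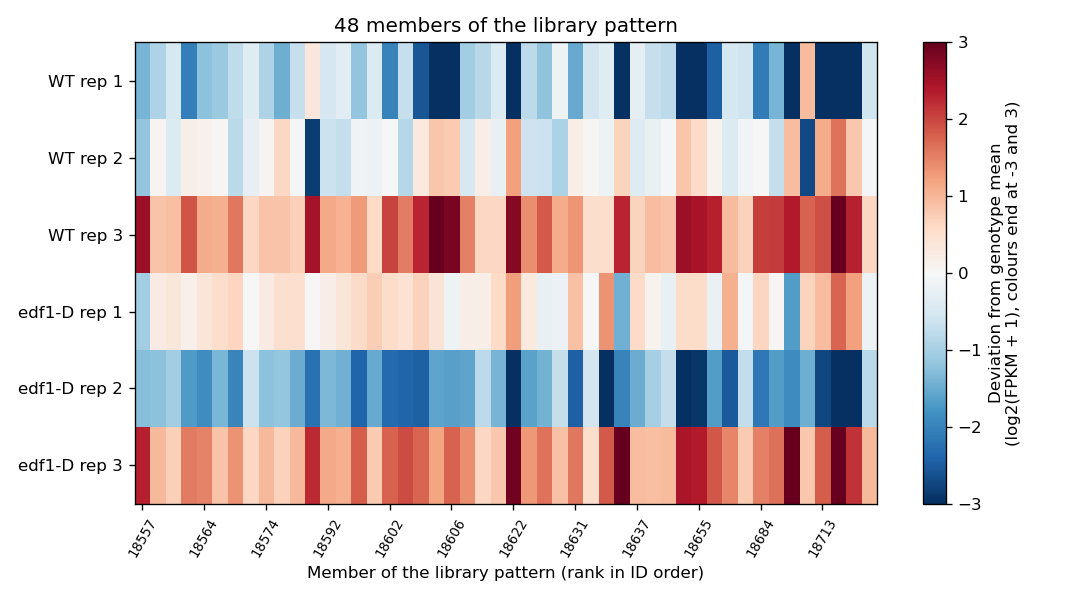
Deviation of each library (rows) from its genotype's mean on the log2(FPKM + 1) scale for the 48 members of the library pattern (columns, by rank). Red marks a library above its genotype's mean and blue one below it. WT replicate 3, edf1-D replicate 3 and edf1-D replicate 2 have 1 colour in all 48 by the rule, while WT replicate 1, on which the rule set no minimum, is the lowest WT library in 40.

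Among the most abundant of these genes was Zm00001eb435850 at rank 18603. It was listed at 369.6, 334 and 1757 FPKM in WT replicates 1, 2 and 3 and at 467, 64.5 and 1323 FPKM in edf1-D replicates 1, 2 and 3. Zm00001eb436890 at rank 18621 was listed at 358, 405 and 735 FPKM in WT and at 289, 71.7 and 338 FPKM in edf1-D. Zm00001eb435820 at rank 18601 was listed at 301, 349 and 598 FPKM in WT and at 237, 49.3 and 245 FPKM in edf1-D. In the latter pair WT replicate 3 stood at 1.93 and 1.84 times the mean of the other WT libraries, and WT replicates 1 and 2 lay close together, while edf1-D replicate 2 stood far below all others.

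A second kind of member was also low in WT replicate 1. The gene at rank 18602 was listed at 21.8, 89.1 and 371 FPKM in WT and at 71.5, 8.71 and 167 FPKM in edf1-D. That at rank 18604 was listed at 13.1, 101 and 409.6 FPKM in WT and at 80.1, 8.27 and 169 FPKM in edf1-D. Ranks 18605 and 18606 went from 1.02 and 2.85 FPKM in WT replicate 1 to 347 and 346 FPKM in WT replicate 3. These 4 genes had similar values in WT replicate 3 and in edf1-D replicate 3, and differed most in WT replicate 1. In 19 of the 48 genes WT replicate 1 stood under 1 part in 5 of WT replicate 2, and in 8 genes it stood above it.

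In the extreme form of this profile a gene was listed at 0 in WT replicate 1 and edf1-D replicate 2 and above 0 in the other 4 libraries. This held for 11 members, all after the jump, of 30 genes among all tested (0.16%). Of the other 8 ways to pair a WT with an edf1-D library, none gave more than 3 members, and the rest of the tested genes gave 8 to 24 for every pair. Zm00001eb442760 at rank 18714, which led the 48 by the smallest of its 3 deviations, was listed at 0, 84.3 and 239 FPKM in WT and at 94.4, 0 and 238 FPKM in edf1-D. Zm00001eb437000 at rank 18622 was listed at 0, 36.2 and 106 FPKM in WT and at 41.2, 0 and 132 FPKM in edf1-D. In WT replicate 3 the 11 genes ranged from 3.52 to 239 FPKM, and 10 of them lay at 10 FPKM or more. The genes at ranks 18713, 18714 and 18715 are neighbours and share this profile, as do those at ranks 18654 and 18655. The depth is unknown and a value of 0 can be a failed estimate, so these genes are only listed at 0.

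**Figure D4:**
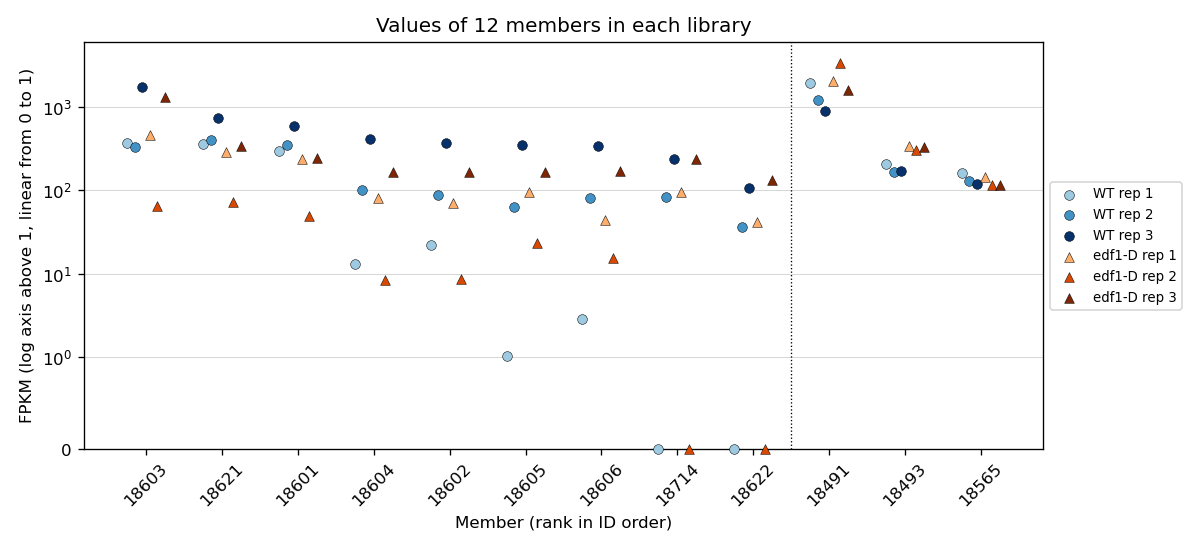
FPKM (y axis, logarithmic above 1 and linear from 0 to 1) of 12 members in each library, WT as circles and edf1-D as triangles. Left of the dotted line are 9 genes of the library pattern, with WT replicate 3 the highest WT library and edf1-D replicate 2 the lowest edf1-D library in each, and right of it 3 abundant members outside the pattern.

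Not every member after the jump followed the pattern. Of the 169, 120 showed neither it nor its opposite. The gene at rank 18565 was listed at 161, 129 and 118 FPKM in WT and at 143, 115 and 116 FPKM in edf1-D, and it was 1 of 5 genes after the jump whose 6 libraries lay within 1.5-fold of each other. Such narrow ranges were found in 13 of the 120 genes before the jump. Opposite to the pattern ran Zm00001eb435160 at rank 18572, which was listed at 2.46, 5.86 and 0 FPKM in WT and at 1.47, 24.1 and 0 FPKM in edf1-D. Zm00001eb434120 at rank 18520, before the jump, was listed at 4.13, 7.96 and 2.23 FPKM in WT and at 6.66, 13.0 and 3.93 FPKM in edf1-D. In both of these genes the replicates 3 were low and edf1-D replicate 2 high. The remaining opposite gene stood at rank 18442.

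Several members were not separate measurements. Exactly the same values in all 6 libraries were held by 18 members in 5 sets of 2 or more. Counting partners outside as well, 25 members shared all 6 values with another tested gene, of 48 such genes in the whole table. The 18 all lay after the jump, and the 289 members thus hold 276 different profiles. The largest sets had 5 members each. One, at ranks 18579, 18599, 18620, 18639 and 18644, was listed at 3.50, 2.96 and 5.78 FPKM in WT and at 3.16, 2.62 and 6.69 FPKM in edf1-D. The other, at ranks 18578, 18619, 18640, 18643 and 18647, was listed at 1.66, 2.11 and 3.34 FPKM in WT and at 2.15, 1.76 and 3.43 FPKM in edf1-D. Members of these 2 sets stood side by side in the order at 4 places, such as ranks 18578 and 18579. A set of 4 members, at ranks 18556, 18566, 18570 and 18582, shared its values with a gene far away at rank 11048, and a set of 2 members, at ranks 18559 and 18574, with one at rank 1683. The other 2-member set stood at ranks 18608 and 18610. Of the 18 genes, 2 belonged to the 48 of the library pattern, which therefore hold 47 different profiles.

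Between genotypes 6 members differed, 1 higher and 5 lower in edf1-D (limma with an intensity trend on log2(FPKM + 1) over all 18719 tested genes, Benjamini-Hochberg adjusted p under 0.05). This is 2.08% of the members, where 3.64% of all tested genes were called, 1.45% as higher and 2.19% as lower. The range of ranks begins where a stretch dense in genotype differences ends, so these shares are a description only. The called genes at ranks 18437, 18441, 18651 and 18707 reached 0.5 FPKM only in the genotype where they were higher. They became members through that genotype alone, so their calls are a description too. The libraries of the genotypes did not overlap in 59 members (20.4%), against 26.3% of all tested genes. The 59 were 39 of the 120 members before the jump (32.5%) and 20 of the 169 after it (11.8%). The median log2 change was -0.19 in the members and -0.12 in all tested genes, and the latter was -0.22 after rescaling to TPM and -0.01 after median-ratio scaling. The balance of directions followed the scaling. Median-ratio scaling gave 16 higher and 13 lower members, upper quartile scaling 16 and 14, quantile normalization 14 and 11, and TPM 5 and 20. Among all tested genes these scalings, in the same order, called 1246 higher and 939 lower, 1081 and 1137, 1011 and 1045, and 597 and 1533. In either direction these were 8.65% to 10.4% of the members and 11.0% to 11.8% of all tested genes, and the members' share was the lower one in each of the 4 scalings.

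Of the 6 genes, 4 lay among the 120 members before the jump and 2 among the 169 after it. Of all tested genes 3.64% were called. The only member called higher was Zm00001eb432480 at rank 18437. It was listed at 0.13, 0.04 and 0 FPKM in WT and at 29.2, 33.5 and 25.7 FPKM in edf1-D, so the genotypes lay far apart. Its log2 change was 4.84 ± 0.19 (SE; limma adjusted p = 2.1e-05), a size that depends on the pseudocount since WT lay near 0. Zm00001eb433490 at rank 18488, with 8 annotated transcripts, fell. It was listed at 21.7, 24.2 and 18.7 FPKM in WT and at 5.89, 3.90 and 3.92 FPKM in edf1-D, a log2 change of -2.03 ± 0.21 (SE; limma adjusted p = 0.0018). Both passed in all 15 alternative fits, but these reuse the same libraries, and the gene at rank 18437 became a member through edf1-D alone.

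Next to the gene that rose stood Zm00001eb432490 at rank 18438, which fell. It was listed at 9.38, 13.2 and 9.95 FPKM in WT and at 3.88, 4.97 and 2.34 FPKM in edf1-D, a log2 change of -1.35 ± 0.26 (SE; limma adjusted p = 0.029). It passed in 9 of 15 alternative fits, and not without a filter (limma adjusted p = 0.074). With 1 library left out its limma adjusted p was 0.052 without WT replicate 1, 0.11 without WT replicate 2, 0.070 without WT replicate 3, 0.10 without edf1-D replicate 1 and 0.080 without edf1-D replicate 3. The low gene at rank 18441 was listed at 0.92, 1.03 and 0.90 FPKM in WT and at 0.07, 0 and 0 FPKM in edf1-D (limma adjusted p = 0.018). Its call was lost without edf1-D replicate 1, 2 or 3, with limma adjusted p of 0.074, 0.059 and 0.078, and with 0.071 when the extreme libraries, WT replicate 3 and edf1-D replicate 2, were both removed.

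After the jump 2 members were called lower. That at rank 18651 was listed at 3.28, 7.65 and 3.29 FPKM in WT and at 0 in every edf1-D library (limma adjusted p = 0.0040). That at rank 18707 was listed at 2.60, 4.45 and 2.31 FPKM in WT and at 0.21, 0 and 0 FPKM in edf1-D (limma adjusted p = 0.0046). In neither gene was WT replicate 3 the highest WT library. Both passed in all 15 alternative fits, but these reuse the same libraries, and both genes became members through WT alone. The neighbour of the first, at rank 18650, was listed at 3.32, 0 and 0 FPKM in WT and at 5.86, 11.0 and 6.04 FPKM in edf1-D and did not pass (limma adjusted p = 0.063), but passed in 5 of the 15 alternative fits.

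Differences of at least 1 on the log2 scale that did not pass were more frequent after the jump. They were found in 29 of the 169 genes there and in 4 of the 120 before it. With the called genes, 13.1% of the members and 5.72% of all tested genes differed by at least 1. The median SE of the log2 change was 0.50 after the jump, 0.22 before it and 0.22 in all tested genes. Among the 48 genes of the library pattern the median SE was 0.94 and the median log2 change -0.34, with 33 genes lower and 15 higher in edf1-D. None of the 48 was called by limma, and 3 had an unadjusted p under 0.05. At that unadjusted threshold stood 21.5% of the members and 19.5% of all tested genes. The rule for these 48 asks for spread within each genotype, which lowers the number of calls. The 5 most abundant members included 1 more gene before the jump, Zm00001eb433610 at rank 18493. It was listed at 205, 166 and 173 FPKM in WT and at 339, 305 and 328 FPKM in edf1-D, with no overlap, and its log2 change of 0.84 ± 0.19 (SE) did not pass (limma adjusted p = 0.053), but passed in 4 of the 15 alternative fits.

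**Figure D5:**
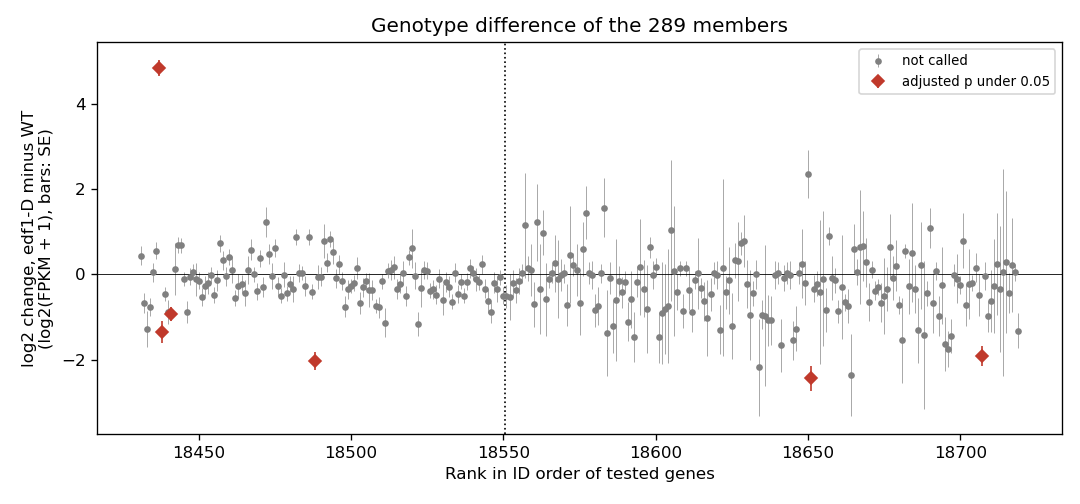
Genotype difference (log2(FPKM + 1), edf1-D minus WT, y axis, bars show the SE) of the 289 members by rank (x axis), with the 6 called genes as red diamonds and the jump of the second identifiers as a dotted line. The bars are longer after the line, where the median SE is 0.50, than before it, where it is 0.22.

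The share of isoforms within a gene, a measure the choice of members did not use, could be tested in 21 members. None showed a genotype difference in any of 42 transcripts (limma, smallest adjusted p = 0.16), and 3 of the 21 genes had an unadjusted p under 0.05. Of all 2671 genes tested in this way 32 (1.2%) were called, and their share at the unadjusted threshold was not counted. At 1.2%, no call among 21 members says little about them. Of the 169 members after the jump, 156 had a single transcript and could not be tested.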

How the data were processed

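The deposited values are 1 number per transcript and library, with 2 decimals. Neither headers nor labels name their unit. The authors' deposited values were read as FPKM, because they carry decimals and their sums differ between libraries. Trimmomatic 0.36, HISAT2, RSEM and DESeq2 are named per the submitters' processing notes, with no role given. Build and strandedness were not given in the sources used here. Antisense reads may therefore not have been told apart. An incomplete TPM column would look alike, so TPM was an alternative.

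Values were summed per gene. Genotypes were compared with limma 3.58.1 in R 4.3.3, with an intensity trend, on log2(FPKM + 1), without covariates, over genes reaching 0.5 FPKM in 3 or more libraries. This scale understates changes of low genes. P-values are two-sided and were adjusted over all tested genes. For isoforms, log2 ratios of a transcript to the other transcripts of its gene, with 1 added to both, were fitted for mean shares of 10% to 90% in genes of at least 5 FPKM in the mean and 1 FPKM in every library.

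Members and rules were chosen with earlier results of these data known. Identifiers are printed for up to 2 called members per direction with a group mean of at least 5 FPKM, by log2 change, for the 2 members with the largest deviations in the library pattern and in its opposite, and for the 5 most abundant. The other genes were chosen after their values were seen and are given by rank. The jump, the library pairs at 0 and the identical sets were likewise defined after seeing the data. Depth is unknown, so no interval that needs counts is given.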

Additional observations from a re-analysis of the deposited data

How the results depend on the processing

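The counts of members called between genotypes, 1 higher and 5 lower, depended most on the scaling, with 5 and 20 after TPM rescaling, 16 and 13 after median-ratio scaling, 14 and 11 after quantile normalization and 16 and 14 after upper quartile scaling. The calls over all tested genes, 271 higher and 410 lower, became 597 and 1533, 1246 and 939, 1011 and 1045, and 1081 and 1137 in that order. All 6 called members were called again in each of these scalings, which reuse the same libraries. Those at ranks 18437, 18441, 18651 and 18707 became members through 1 genotype alone. Robust variances gave 3 higher and 5 lower members, or 2.77% against 3.86% of all tested genes. An adjusted p under 0.01 gave 1 and 3, or 1.38% against 1.27%. Without the filter the shares were 1.73% and 1.37%. With 1 library left out there were 1 to 3 higher and 3 to 6 lower members. This was 1.38% to 2.77% of the members, against 1.56% to 2.91% of all tested genes. Of these 6 fits, the members' share was the higher one only without edf1-D replicate 1 (2.08% against 1.56%). With both extreme libraries (WT replicate 3, edf1-D replicate 2) removed, chosen after seeing the data, there were 4 and 11, or 5.19% of the members against 3.57% of all tested genes (165 higher, 504 lower). The replicate block gave 4 higher and 11 lower members, or 5.19% against 5.08% (360 higher, 591 lower). Between same-numbered libraries, Pearson's r of the deviations over genes was -0.19 (number 1), -0.01 (number 2) and 0.35 (number 3). These values do not settle whether same-numbered libraries are pairs, and the labels do not say. The numbers were not taken as pairs in the main fit. The library pattern, 48 members, held 76 after TPM rescaling (149 of all tested genes). It held 80 with no minimum deviation and 28 with a minimum of 1 (231 and 39 of all tested genes). Without WT replicate 1, WT replicate 2 or edf1-D replicate 1 it held 33, 44 and 56 (55, 72 and 98 of all tested genes). The opposite pattern, 3 members, held 6 with a pseudocount of 0.1, 53 with no minimum deviation and 1 with a minimum of 1. These were 2.08%, 18.3% and 0.346% of the members, against 2.82%, 36.2% and 0.102% of all tested genes. With the same libraries left out in turn, the opposite pattern held 2, 2 and 8 members. In percent this was 0.692, 0.692 and 2.77 of the members, against 0.855, 1.16 and 2.44 of all tested genes. Without the 5 most abundant members, the mean share of the members was 0.907% in place of 1.56% in WT and 0.679% in place of 1.34% in edf1-D. With 1 library left out the mean share ran from 1.10% to 1.82% in WT and from 1.11% to 1.54% in edf1-D. No isoform change was called in members in any of the 8 alternative fits. For all of these, the cause was not tested. The unknown depth limits genes near 0.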

Other observations

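After the jump 675 annotated genes did not reach the expression minimum, and 386 of them were listed at 0 in all 6 libraries. Above 0 were 131, 115 and 142 of the 675 in WT replicates 1, 2 and 3, and 114, 142 and 142 in edf1-D replicates 1, 2 and 3. Their summed FPKM was 53.9, 42.4 and 343 in WT and 174, 126 and 168 in edf1-D. The highest value of a single gene, taken in each library separately, was 110 FPKM in WT replicate 3 and 86.7 FPKM in edf1-D replicate 2. By number of genes above 0, edf1-D replicate 2 was thus not the lowest library among these genes. Genes that reached 0.5 FPKM in 3 or more libraries are left out here by the filter, so this count cannot be set against that of the members.

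Outside the members 26 tested genes (0.141% of them) met the rule of the library pattern. Of these 24 had a single transcript, and their median mean level was 4.10 FPKM. A mean of at least 10 FPKM was reached by 7 of the 26 and by 31 of the 48 members in the pattern.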
